A study of Arabidopsis thaliana with 16 samples.

Results

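The genes described here encode 3 enzymes of the Calvin cycle and the activase of Rubisco. They are PRK (AT1G32060, phosphoribulokinase), SBPASE (AT3G55800, sedoheptulose bisphosphatase), AT1G56190 (a plastid phosphoglycerate kinase) and RCA (AT2G39730, Rubisco activase). They were chosen by name, with earlier results of these data known. The platform annotation of the array gives each of them 1 probe set that belongs to no other gene, so that 4 of the 22266 probe sets tested are theirs. The study set the Arabidopsis mutant glu1-2, a homozygous T-DNA insertion line in the ferredoxin-dependent glutamate synthase gene Fd-GOGAT1, against its background accession Col-0. The mutant grew less and was chlorotic, and it is known here from 1 insertion line. Rosette leaves and roots were taken separately from plantlets of both genotypes at 18 days, all raised in vitro on Murashige and Skoog medium with 3% sucrose under a 16 h photoperiod and cut 2 h after the light came on. Each of the 4 groups, leaf glu1-2, leaf Col-0, root glu1-2 and root Col-0, holds 4 biological replicates, each hybridised to 1 Affymetrix ATH1 array, 16 arrays in all.

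The Calvin cycle is the set of stromal reactions by which chloroplasts build carbon dioxide into sugar phosphates, with ATP and NADPH from the light reactions. Rubisco adds carbon dioxide to ribulose bisphosphate, phosphoglycerate kinase and the enzymes after it reduce the product to triose phosphate, and sedoheptulose bisphosphatase and phosphoribulokinase stand in the branch that makes ribulose bisphosphate again. Rubisco activase frees the active site of Rubisco from bound sugar phosphates, and thioredoxins reduced by the light reactions switch several of the enzymes on. PRK, SBPASE and RCA are known as leaf genes, and roots, whose plastids carry little or no chlorophyll, express them far below leaves. The organs were closer for AT1G56190, with a leaf to root fold of 2.31 in Col-0. How much of the phosphoglycerate kinase of the cycle comes from this gene was not tested.

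In TAIR10.1 coordinates, PRK lies on chromosome 1 from 11532199 to 11534639 and AT1G56190 on the same chromosome from 21028137 to 21030684. SBPASE lies on chromosome 3 from 20709294 to 20711640, and RCA on chromosome 2 from 16570746 to 16573692. RefSeq annotates 1 transcript each for PRK and SBPASE, 2 for AT1G56190 and 3 for RCA. The array gives 1 value per gene, in which such transcripts are not told apart.

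The values are RMA expression measures, which are background corrected, quantile normalised and summarised over the probes of a probe set, as intensities on a linear scale, and all tests ran on their log2. Median intensity was 97 to 110 over the 16 arrays. Leaf glu1-2 replicate 2 stood apart at the bright end, with a highest intensity of 11783 where the other 7 leaf arrays reached 14783 to 16005. A probe set was called at a Storey q under 0.01 in limma's moderated test, fitted over all 22266 probe sets. Exact permutation tests of 4 against 4 arrays are two-sided, and the smallest p they can give is 0.0286. The transcript of Fd-GOGAT1 itself was not analysed here, so the genotype labels were not checked against it. The organ labels were checked by tissue markers, of which 3 of 16 listed shoot markers and 3 of 12 listed root markers had a named probe set. The summed intensity of the root markers PYK10, EXPA7 and EXPA18 was 10562 to 13296 in root glu1-2 and 11016 to 13300 in root Col-0, against 1094 to 1544 in leaf glu1-2 and 1227 to 1534 in leaf Col-0.

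In leaves, the transcripts of all 3 enzymes were lower in glu1-2 and passed the test, by 1.50-fold for PRK, 1.84-fold for SBPASE and 1.29-fold for AT1G56190, while RCA did not pass. In roots the direction was the opposite: PRK was 1.83-fold, SBPASE 1.59-fold and RCA 1.55-fold higher in glu1-2, while AT1G56190 did not pass. Over all probe sets, 13.7% were called lower and 14.2% higher in glu1-2 leaves, and 1.58% were called higher and 1.26% lower in glu1-2 roots. PRK and SBPASE passed in both organs, lower in leaves and higher in roots, a combination met by 116 probe sets or 0.521% of those tested.

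PRK, which phosphorylates ribulose phosphate to the substrate of Rubisco, had leaf intensities of 4439, 4205, 4542 and 4719 in glu1-2, against 7073, 6422, 6735 and 6699 in Col-0. Every glu1-2 leaf array was below every Col-0 leaf array, and each group spread little around its mean. The log2 means were 12.13 ± 0.07 in glu1-2 and 12.72 ± 0.06 in Col-0 leaves (SD, n = 4 each), a log2 difference of -0.59 (SE 0.0759, q = 3.97e-05 by limma). After a renewed quantile normalisation of all arrays the leaf difference of PRK was smaller, at -0.45, and still called (q = 0.000183 by limma). In roots PRK measured 462, 447, 489 and 429 in glu1-2, against 264, 271, 211 and 255 in Col-0. Here all glu1-2 arrays were above all Col-0 arrays, with a wide gap between the groups. The root log2 means were 8.83 ± 0.08 in glu1-2 and 7.96 ± 0.16 in Col-0 (SD, n = 4 each), and the log2 difference of 0.87 (SE 0.0854, q = 0.00013 by limma) was the 36th highest of the 22266 root differences.

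SBPASE, whose product feeds the regeneration of ribulose bisphosphate, had leaf intensities of 2712, 2168, 2534 and 2401 in glu1-2, against 4231, 4395, 5125 and 4323 in Col-0. The groups were well apart, with replicate 2 the lowest in glu1-2 and replicate 3 the highest in Col-0. The leaf log2 means were 11.26 ± 0.14 in glu1-2 and 12.14 ± 0.13 in Col-0 (SD, n = 4 each), and the log2 difference of -0.88 (SE 0.0956, q = 1.03e-05 by limma) was the largest leaf difference among the 4 genes. In roots SBPASE measured 180, 182, 186 and 178 in glu1-2, against 113, 119, 92 and 136 in Col-0. The glu1-2 arrays were nearly alike and all above the Col-0 arrays, which scattered. The root log2 means were 7.50 ± 0.03 in glu1-2 and 6.83 ± 0.23 in Col-0 (SD, n = 4 each), a log2 difference of 0.67 (SE 0.101, q = 0.00174 by limma). Without root glu1-2 replicate 2 the root difference of SBPASE was 0.67 with q = 0.0102 and missed the threshold, although it was called without each of the other 7 root arrays.

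AT1G56190, a plastid phosphoglycerate kinase, had leaf intensities of 1235, 1221, 1430 and 1134 in glu1-2, against 1573, 1627, 1682 and 1576 in Col-0. The groups did not overlap, and glu1-2 replicate 3 came nearest to Col-0. The leaf log2 means were 10.29 ± 0.14 in glu1-2 and 10.66 ± 0.05 in Col-0 (SD, n = 4 each), a log2 difference of -0.37 (SE 0.0866, q = 0.00272 by limma). In roots the gene measured 807, 778, 813 and 774 in glu1-2, against 678, 751, 632 and 744 in Col-0. All glu1-2 root arrays were again above all Col-0 root arrays, but the nearest were close. The root log2 means were 9.63 ± 0.04 in glu1-2 and 9.45 ± 0.12 in Col-0 (SD, n = 4 each), and with a log2 difference of 0.18 the gene was not called (95% interval 0.03 to 0.34, q = 0.146 by limma).

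RCA, the chaperone-like ATPase that keeps Rubisco active, had leaf intensities of 11174, 9008, 11437 and 10174 in glu1-2, against 11946, 11216, 12685 and 12029 in Col-0. Of the glu1-2 leaf arrays, 3 were below all Col-0 arrays and replicate 3 was above the lowest Col-0 array. The leaf log2 means were 13.34 ± 0.16 in glu1-2 and 13.55 ± 0.07 in Col-0 (SD, n = 4 each), and with a log2 difference of -0.20 the gene was not called (95% interval -0.40 to 0.0009, q = 0.059 by limma, exact permutation p = 0.0571). Leaf RCA lies near the top of the intensity scale, where glu1-2 replicate 2 stood apart, and without that array the log2 difference was -0.13. After a renewed quantile normalisation of all arrays it was 0.0054 (SE 0.0718), which is within its SE and gives no direction. With each array shifted to a common median it was -0.26 (q = 0.0202 by limma), also not called. The size of the leaf difference of RCA thus depends on the scaling. In roots RCA measured 1451, 1481, 1539 and 1445 in glu1-2, against 954, 1091, 877 and 900 in Col-0. The glu1-2 root arrays were all above the Col-0 root arrays, with a clear gap. The root log2 means were 10.53 ± 0.04 in glu1-2 and 9.89 ± 0.14 in Col-0 (SD, n = 4 each), a log2 difference of 0.64 (SE 0.076, q = 0.000407 by limma).

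**Figure D1:**
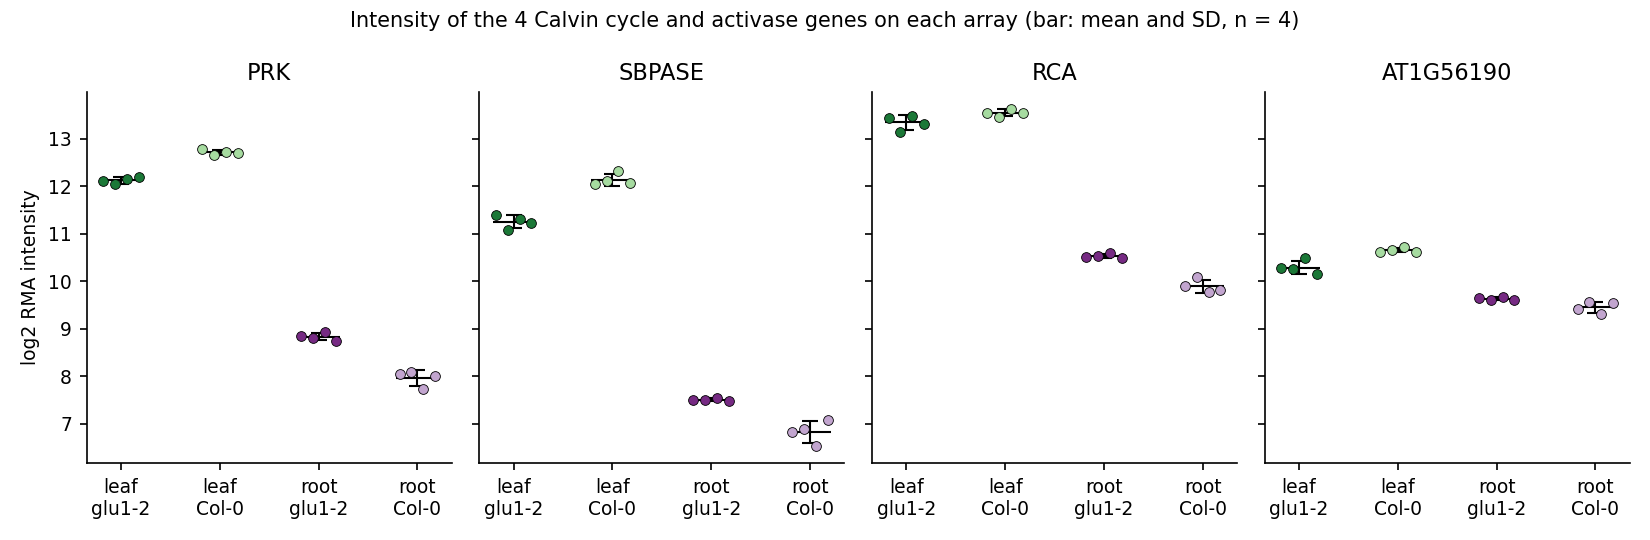
Log2 RMA intensity of PRK, SBPASE, RCA and AT1G56190 (vertical axis) on each of the 16 arrays, by organ and genotype, with 1 point per array and bars for the mean and SD (n = 4). The order of the group means, from high to low, is leaf Col-0, leaf glu1-2, root glu1-2, root Col-0, where for RCA the leaf groups overlap and their difference was 0.0054 after renewed quantile normalisation, and heights are not comparable between genes because each probe set binds its target with its own strength.

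In PRK, SBPASE and AT1G56190 the level was highest in Col-0 leaves, then in glu1-2 leaves, then in glu1-2 roots, and lowest in Col-0 roots. RCA had the same order as deposited, but its leaf groups were about level after renewed quantile normalisation (log2 difference 0.0054). Neighbours in that order that the test did not separate were the leaf groups for RCA and the root groups for AT1G56190. Leaf arrays of glu1-2 lay wholly below those of Col-0 for 3 of the 4 genes, which held for 16.2% of all probe sets, and root arrays of glu1-2 lay wholly above those of Col-0 for all 4, which held for 5.84% of all probe sets. The exact permutation p was 0.0286 in each of these 7 comparisons. The 4 genes were read on the same arrays, so these separations are not independent of each other.

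The distance between the organs was smaller in glu1-2 than in Col-0 for every one of the genes. The leaf to root fold of PRK was 9.80 in glu1-2 and 27.0 in Col-0, and that of SBPASE was 13.5 in glu1-2 and 39.6 in Col-0. For RCA it was 7.04 in glu1-2 and 12.6 in Col-0, and for AT1G56190 1.58 in glu1-2 and 2.31 in Col-0. The fold in glu1-2 was thus 36.3% of that in Col-0 for PRK, 34.1% for SBPASE, 56.0% for RCA and 68.4% for AT1G56190. All 8 of these leaf to root differences passed in limma, where 33.8% of probe sets were higher in leaves in glu1-2 and 36.9% in Col-0.

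Whether glu1-2 acted unequally in the organs was tested over all 16 arrays, as the leaf effect minus the root effect. On the log2 scale this is the same quantity as the glu1-2 fold relative to the Col-0 fold given above, not a further result. It was -1.46 for PRK (SE 0.114, q = 3.27e-09 by limma), -1.55 for SBPASE (SE 0.143, q = 3.29e-08), -0.84 for RCA (SE 0.12, q = 9.07e-06) and -0.55 for AT1G56190 (SE 0.111, q = 0.000313) on the log2 scale. All 4 genes passed in this direction, as did 12.8% of all probe sets. RCA and AT1G56190, which passed in 1 organ each, therefore also responded unequally in leaves and roots.

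**Figure D2:**
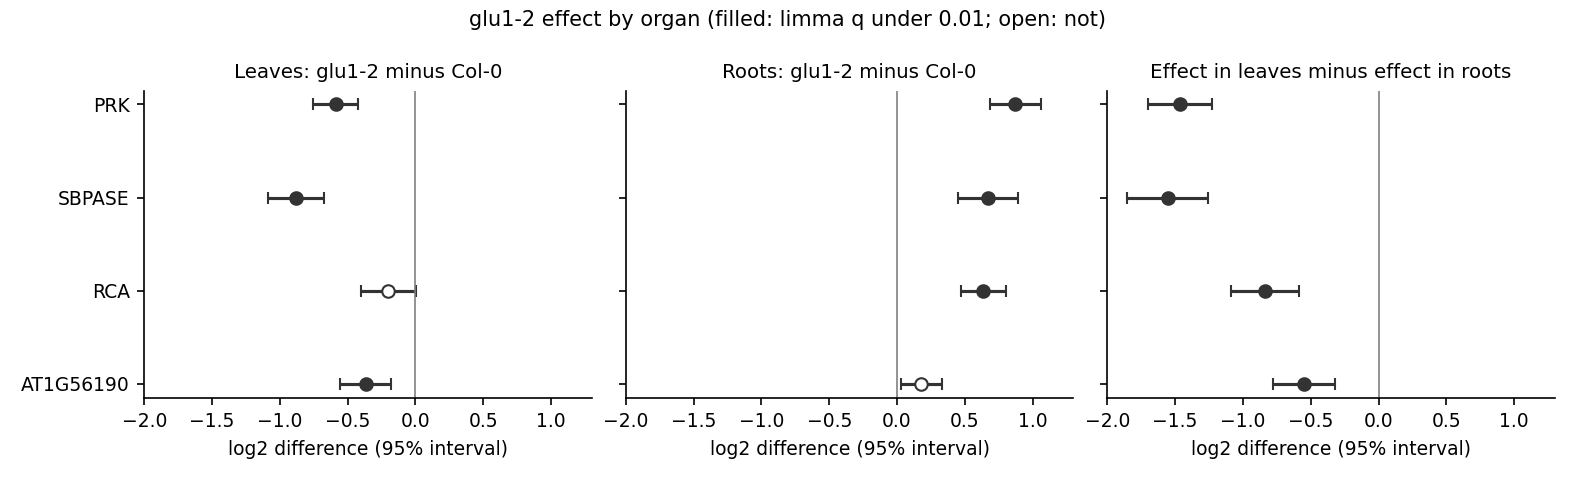
Log2 difference between glu1-2 and Col-0 with its 95% interval (horizontal axis) for each gene in leaves, in roots, and as the leaf effect minus the root effect, with filled points for q under 0.01. PRK and SBPASE are to the left of 0 in leaves and to the right in roots with filled points, and all 4 organ differences are filled and negative.

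The probe sets of these genes did not change by equal amounts. The difference between the log2 values of a pair of genes was taken on each array and compared between the genotypes by exact permutation, for 6 pairs in each organ, with p-values adjusted over the 12 comparisons, of which 8 had an adjusted p under 0.05, all at the smallest p the design allows (0.0286, adjusted 0.0429). In leaves, SBPASE responded more negatively than RCA, with a difference of -0.68 (SE 0.0552, adjusted permutation p = 0.0429), and than AT1G56190, with a difference of -0.51 (SE 0.0924, adjusted permutation p = 0.0429). PRK likewise responded more negatively than RCA in leaves, with a difference of -0.39 (SE 0.0739, adjusted permutation p = 0.0429). Leaf RCA lies near the top of the intensity scale, and whether the scale understates its change there was not tested. After renewed quantile normalisation, SBPASE minus RCA was -0.88 and PRK minus RCA was -0.46 in leaves. The other 3 leaf pairs were not separated: PRK minus SBPASE was 0.29 ± 0.0952 (SE, adjusted permutation p = 0.0762), PRK minus AT1G56190 was -0.22 ± 0.0924 (adjusted permutation p = 0.103) and RCA minus AT1G56190 was 0.17 ± 0.0787 (adjusted permutation p = 0.125).

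In roots, PRK had a larger response than each of the others, by 0.20 over SBPASE (SE 0.0798), by 0.24 over RCA (SE 0.0632) and 0.69 over AT1G56190 (SE 0.0546), each with an adjusted exact permutation p of 0.0429. AT1G56190 had the smallest response, which SBPASE exceeded by 0.49 (SE 0.0702) and RCA by 0.45 (SE 0.0612), with the same adjusted permutation p. The lead of PRK over SBPASE was 0.13 without root Col-0 replicate 4. SBPASE and RCA were not separated in roots, with a difference of 0.04 ± 0.118 (SE, exact permutation p = 0.857) that ranged from -0.03 to 0.15 with 1 array left out.

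Replicates of a group also varied together across the genes. Root Col-0 replicate 3 was the lowest of its group in all 4 genes, and root glu1-2 replicate 3 was the highest and replicate 4 the lowest of their group in all 4. Leaf glu1-2 replicate 2 was the lowest of its group in PRK, SBPASE and RCA but not in AT1G56190. After the mean of each organ was subtracted, Pearson's r over the 16 arrays was 0.92 for PRK with SBPASE, 0.91 for PRK with RCA, 0.91 for SBPASE with AT1G56190, 0.78 for SBPASE with RCA, 0.78 for PRK with AT1G56190 and 0.66 for RCA with AT1G56190. These values describe arrays that the genes share, and they hold the genotype difference as well as the spread among replicates.

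**Figure D3:**
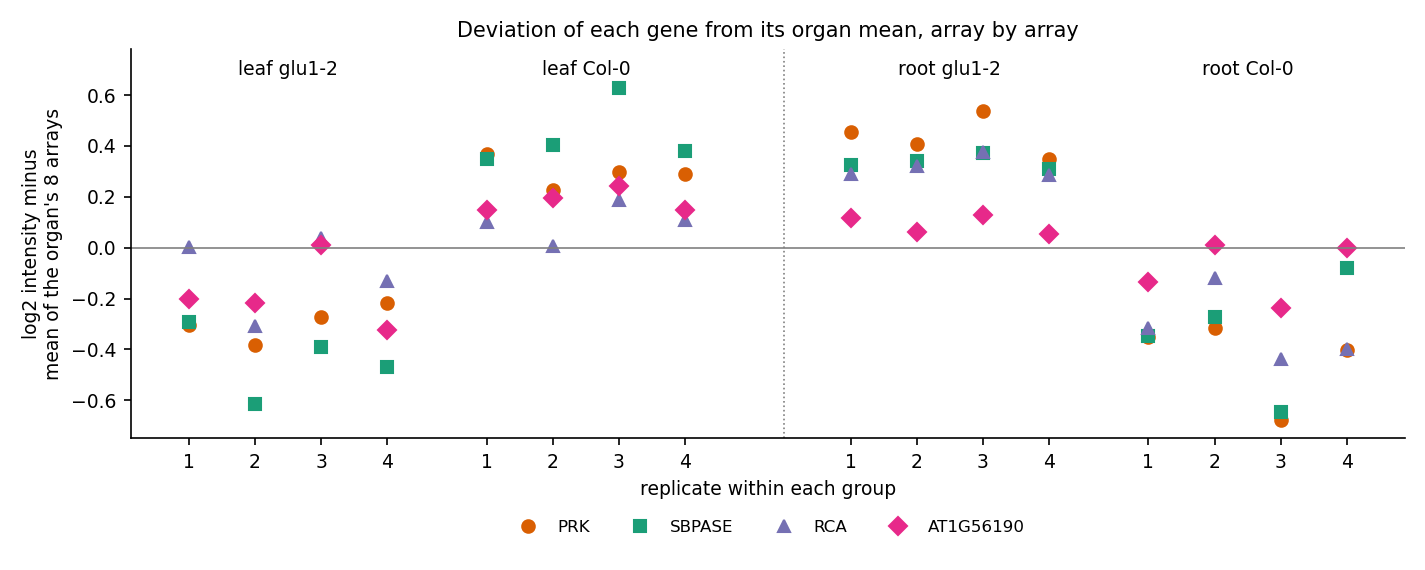
Log2 intensity minus the mean of the 8 arrays of the organ (vertical axis) for each of the 16 arrays, by replicate within each group, with 1 symbol per gene. All 4 genes are above 0 in root glu1-2, PRK, SBPASE and RCA are below 0 on all root Col-0 arrays while AT1G56190 is about at 0 on 2 of them, and root Col-0 replicate 3 is the lowest array of its group for every gene.

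Within the wider cycle, 6 of 23 listed plastid genes and 7 of 18 listed regulators had a named probe set of exactly 1 gene, the genes above included. In leaves 5 of the 6 cycle genes passed as lower in glu1-2 and 0 as higher, with a median log2 difference of -0.74, and 2 of the 7 regulators passed as lower and 0 as higher, with a median of -0.28. Over all probe sets 13.7% passed as lower in leaves, and the median was -0.02. In roots 2 of the 6 cycle genes (PRK and SBPASE) and 1 of the 7 regulators (RCA) passed as higher and 0 as lower, with medians of 0.10 and 0.09. Over all probe sets 1.58% passed as higher in roots, and the median was 0.01. Without PRK, SBPASE, RCA and AT1G56190 there were 9 measured genes of 37 listed, of which 4 passed as lower in leaves and 0 passed in roots in either direction. The rest of the listed genes had no named probe set and were not read here, so these counts cannot show how they changed. The paper reports that most of the Calvin cycle genes it found affected were lower in leaves and higher in roots. The number of cycle and regulator genes lower in leaves was 10 rather than 7 at q under 0.05, and also 10 when each array was shifted to 1 common median, and the number higher in roots was 3 in both cases. Over all probe sets the number lower in leaves rose as well, from 3054 to 4566 at q under 0.05 and to 4016 with the common median. The number of all probe sets higher in roots rose from 352 to 793 and to 420.

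The 4 others that fell in leaves were an isomerase, a phosphatase and a pair of thioredoxin system genes. AT5G44520, a ribose phosphate isomerase, which interconverts pentose phosphates in the regeneration branch, had intensities of 180 to 235 in glu1-2 leaves and 477 to 532 in Col-0 leaves, a log2 difference of -1.28 (q = 5.55e-07 by limma). TRXF2, a thioredoxin of the f type, which activates cycle enzymes by reducing their disulfides, had 818 to 914 in glu1-2 leaves and 1760 to 2494 in Col-0 leaves (-1.22, q = 3.14e-06). AT5G64380, a plastid fructose bisphosphatase, had 215 to 259 in glu1-2 leaves and 468 to 501 in Col-0 leaves (-1.03, q = 8.45e-07). All 3 had groups that were far apart in leaves and overlapped in roots, except that TRXF2 overlapped there only slightly. AT2G04700, a subunit of ferredoxin-thioredoxin reductase, which passes electrons from ferredoxin to thioredoxins, fell by 0.47 on the log2 scale (q = 0.000574 by limma), with 1607 to 1961 in glu1-2 leaves and 2287 to 2414 in Col-0 leaves. The root log2 differences of these genes were 0.00 for AT5G44520, 0.15 for TRXF2, 0.03 for AT5G64380 and 0.03 for AT2G04700, none of which passed.

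The other 5 measured genes passed in neither organ, although rbcL, ATHM2 and AT5G28500 passed as lower in leaves when the array medians were set equal (q = 0.00502, 0.00804 and 0.00561 by limma). For rbcL, the plastid gene of the large subunit of Rubisco, intensities were 385 to 685 in glu1-2 leaves and 663 to 1029 in Col-0 leaves, with a log2 difference of -0.57 that just missed the threshold (q = 0.0126 by limma). The leaf log2 difference was -0.34 for ATHM2, a thioredoxin of the m type, and -0.28 for AT5G28500, a Rubisco assembly factor. It was -0.02 for AT3G04550, a second assembly factor, and 0.01 for NTRC, an NADPH-dependent thioredoxin reductase of plastids. Among the cytosolic counterparts of cycle enzymes, 3 of 13 were measured, and only TPI, a triose phosphate isomerase, passed. It was higher in glu1-2 leaves, at 5573 to 6004 against 3822 to 4401 in Col-0 leaves (log2 difference 0.48, q = 0.000226 by limma), with no change called in roots.

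**Figure D4:**
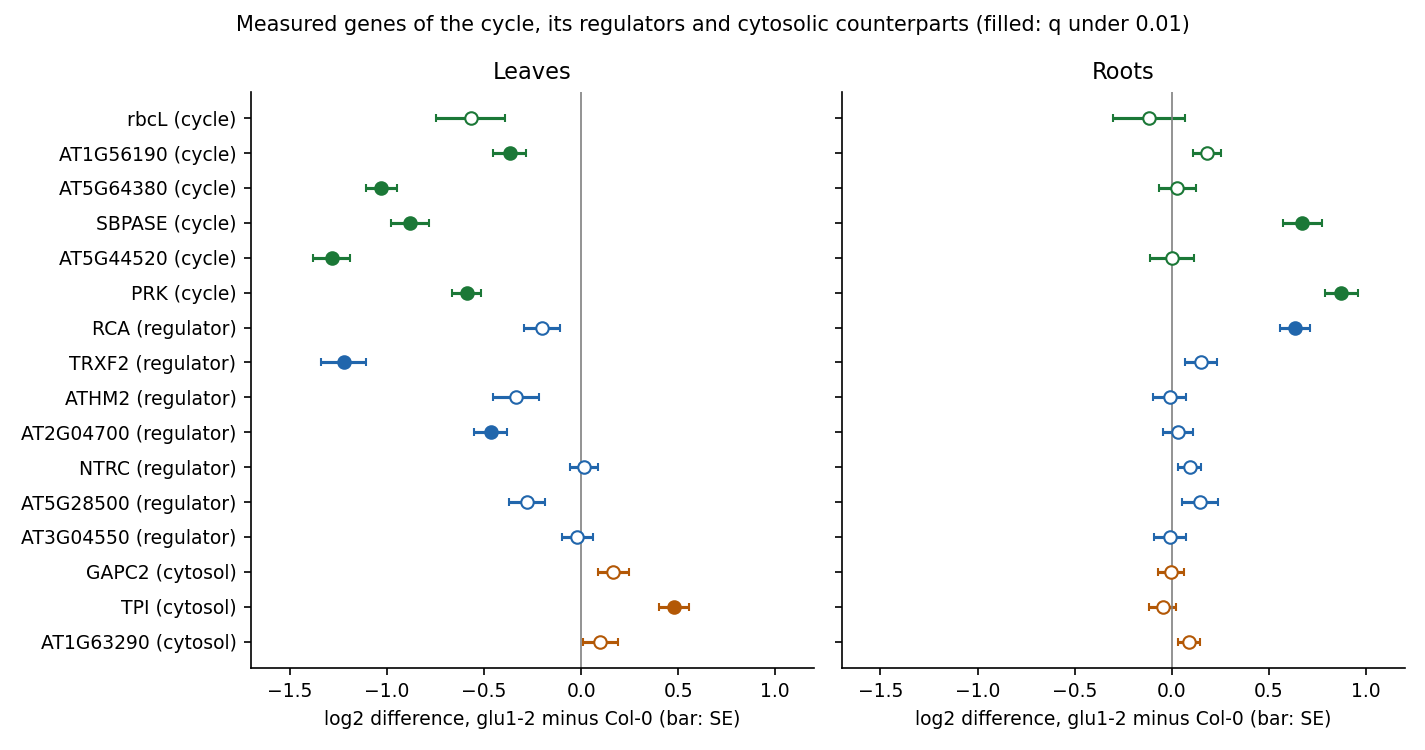
Log2 difference between glu1-2 and Col-0 with its SE (horizontal axis) in leaves and in roots for the measured genes of the cycle (green), its regulators (blue) and cytosolic counterparts (orange), with filled points for q under 0.01. In leaves 7 filled points lie to the left of 0 and 1, TPI at 0.48, to the right, and in roots the filled points are PRK, SBPASE and RCA alone.

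Because PRK, SBPASE and RCA rose in roots, the shoot markers were read on the same arrays. Their summed intensity was 972 to 1124 in root glu1-2 and 738 to 794 in root Col-0, against 7832 to 9458 in leaf glu1-2 and 9757 to 10280 in leaf Col-0. Most of the sum came from PSAE-1, a photosystem I subunit, which had 910 to 1063 in root glu1-2 and 686 to 735 in root Col-0 and passed as higher (log2 difference 0.51, q = 0.000759 by limma). YAB3, which marks the lower side of leaf primordia, had 29 to 36 in root glu1-2 and 24 to 31 in root Col-0, and FAMA (FMA), which marks guard cell precursors, had 26 to 33 in root glu1-2 and 28 to 31 in root Col-0. Both are near the dim end of the scale in roots, and in leaves they had 155 to 333 and 116 to 172 in glu1-2, against 150 to 220 and 135 to 216 in Col-0. The photosynthetic marker PSAE-1 was called higher in roots, as were PRK, SBPASE and RCA. No change was called in roots for YAB3 (log2 difference 0.17, q = 0.311 by limma) or FAMA (-0.02, q = 0.728 by limma). These 2 are not photosynthetic, and at such low root intensities they cannot show whether a small part of shoot tissue was present. The part of shoot tissue in the root result was not tested. In RNA from whole organs, fewer cells of a type and less RNA per cell cannot be told apart.

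The probe sets most like each gene were sought among 7569 of single genes with a mean log2 intensity of at least 5 in every group, by Pearson's r over the 16 arrays after the organ means were subtracted. For PRK they were AT5G58900 (r = 0.96), AT5G10970 (r = 0.96) and LHCB4.2, an antenna protein of photosystem II (r = 0.96). For SBPASE they were LIL3:2, a light-harvesting-like protein (r = 0.96), HPR, the hydroxypyruvate reductase of photorespiration (r = 0.96), and GSTU18, a glutathione transferase (r = 0.95). For RCA they were AT5G58330, the NADP-dependent malate dehydrogenase (r = 0.95), SWEET11, a sucrose exporter (r = 0.94), and PSAE-1 (r = 0.93). For AT1G56190 they were AT2G44360 (r = 0.95), AT3G11560 (r = 0.94) and AT2G15695 (r = 0.94).

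The subtraction of organ means keeps the genotype difference in r, so the directions of these genes follow largely from how they were chosen and are given as a description. The log2 difference of HPR was -0.69 in leaves and 0.71 in roots, and that of GSTU18 -1.004 in leaves and 0.76 in roots. For LHCB4.2 it was -0.45 in leaves and 0.49 in roots, and for AT5G10970 -0.34 in leaves and 0.70 in roots. Each of these 4 passed in both organs. LIL3:2 passed in leaves alone (-0.60, with 0.34 in roots), and AT5G58900 in roots alone (0.37, with -0.18 in leaves). None of the genes most like AT1G56190 was called in roots. Of these, AT3G11560 (-0.44) and AT2G15695 (-0.61) passed as lower in leaves, and AT2G44360 (-0.22) did not. Those most like RCA were, as RCA was, called only in roots, at 0.46 for AT5G58330, 0.76 for SWEET11 and 0.51 for PSAE-1. With the organ means kept in, AT5G58900, AT5G10970 and AT2G44360 had a negative r with their gene (-0.58, -0.77 and -0.76), since they were brighter in roots than in leaves. The values of r are descriptions over shared arrays, chosen as the highest of many.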

How the data were processed

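RNA of rosette leaves and of roots was hybridised to Affymetrix ATH1 arrays, 4 for each of 4 groups. The authors preprocessed the scans by RMA in R, with quantile normalisation and a robust linear model (version not given in the sources used here). The intensity values they deposited are linear, not log2, and given as whole numbers. Their log2 was used with no further normalisation. Of 22279 probe sets, 13 controls were left out. The platform annotation names 1 gene for 13216 probe sets, several for 491 and none for 8559, and symbols and positions came from a RefSeq table of TAIR10.1. Each organ was fitted alone over 8 arrays with limma 3.58.1 in R 4.3.3, without pairing, and q-values followed Storey (lambda from 0 to 0.95 in steps of 0.05, spline with 3 degrees of freedom). The threshold of 0.01 is that of the study. Contrasts between organs used 8 arrays per genotype, or 16 for the difference in effect. The fits were checked on simulated data. Permutation tests used Python 3.11.15 and scipy 1.17.1. The number of arrays limits the precision.

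The genes, the lists and the tests were chosen with earlier results of these data known. Named are the 4 genes, the genes of the pathway lists that passed in either organ, those that did not, in part by number, and the 3 probe sets most like each gene. Lists counted 1 probe set per gene. The alternatives tried were q under 0.05, Benjamini-Hochberg adjustment, a fit of all 16 arrays together, a replicate block, dropping probe sets under the 0.25 quantile of intensity, renewed quantile normalisation, setting the median of every array equal, an intensity trend with robust moderation, probe sets of several genes, and leaving out each array in turn. Promoter motifs were not analysed here.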

Additional observations from a re-analysis of the deposited data

Results flagged for a closer look

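The effect of glu1-2 differed between leaves and roots in all 4 genes, by a limma contrast over 16 arrays. The leaf effect minus the root effect was -1.4623 for PRK, -1.5535 for SBPASE, -0.836 for RCA and -0.5487 for AT1G56190 on the log2 scale. No array was far from the others of its group by Dixon's test at the 95% level in any of the 16 combinations of gene and group. With so few arrays in a group that test finds only an extreme value, so it cannot show that no array stood apart.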

How the results depend on the processing

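Of 348 values of the 4 genes under the alternatives, over 20 results, 345 kept their direction and their side of the threshold, 2 lost their call and 1 turned its sign. Many of these values belong to leaf to root differences and organ contrasts far below the threshold, whose calls could hardly change. Only renewed normalisation, equal medians and leaving out an array alter the log2 difference itself. Under the other alternatives its direction could not change. The leaf difference of RCA, which was not called, was 0.0054 after renewed quantile normalisation (the 1 turned sign, within its SE of 0.0718). It was -0.2553 with the array medians set equal and -0.2465 to -0.1317 with 1 array left out. The root difference of SBPASE kept its value of 0.6721 with a replicate block but had q = 0.0134, and it was 0.5695 to 0.7574 with 1 array left out. The 12 pairs of genes were tested again only under renewed quantile normalisation, where 10 kept their call and PRK minus SBPASE in leaves (0.4205) and RCA minus AT1G56190 in leaves (0.3198) passed (adjusted permutation p = 0.0343 each). Of 96 pair values with 1 array left out, which were not tested, 94 kept their sign, the exceptions being SBPASE minus RCA in roots without Col-0 replicate 2 (-0.0074) and without Col-0 replicate 3 (-0.0261). The cause of these changes was not tested. Replicate numbers were not taken as pairs, since deviations of same-numbered arrays had r of -0.03 to 0.11 in leaves and -0.04 to 0.13 in roots. With the array medians set equal, leaf calls in glu1-2 numbered 2873 higher and 4016 lower, against 3154 and 3054 as deposited. The numbers of all probe sets called in roots, 352 higher and 280 lower, were 793 and 707 at q under 0.05, 536 and 450 with robust moderation and an intensity trend, and 146 and 103 with the block. With 1 array left out they were 210 to 284 and 128 to 216.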
